A study of Rattus norvegicus with 6 samples.

Results

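Indirect pathway medium spiny neurons, the striatal projection neurons that carry the dopamine receptor Drd2 and the adenosine receptor Adora2a, were chosen by their own transcript counts from single nucleus RNA-seq libraries. A nucleus was kept if it held at least 500 UMIs, between 250 and 5000 genes and at most 5% mitochondrial UMIs. It was called a D2 nucleus if it held at least 5 UMIs of Snap25, Syt1 and Rbfox3 together, at least 3 of Rarb, Rgs9 and Ppp1r1b together, at least 2 of Drd2 and Adora2a together, and no UMI of Drd1, Slc17a7 or Slc17a6. This gave 2365 D2 nuclei of 73649 kept nuclei. The files held 73826 nuclei. The study examined how the cells of the rat brain respond to an ischemic stroke, in 11 male wild-type Wistar rats of 12 weeks of age. Permanent middle cerebral artery occlusion (MCAO), in which a filament blocks the artery that feeds the striatum and the lateral cortex, or a Sham operation was followed 48 h later by isolation of nuclei from coronal forebrain slices, with the hemispheres kept apart. The 6 libraries formed 3 groups of 2: Sham L and Sham R (left and right hemispheres of 4 Sham-operated rats), MCAO contra (the hemisphere away from the lesion, in 1 library from 3 rats with moderate infarctions, mMCAO, and 1 from 4 rats with severe infarctions, sMCAO) and MCAO ipsi (the lesioned hemisphere of the same rats, again as an mMCAO and an sMCAO library).

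Medium spiny neurons make up most of the neurons of the striatum and release GABA. Those of the direct pathway carry Drd1, make substance P and dynorphin and project to the internal pallidum and the substantia nigra, whereas those of the indirect pathway carry Drd2 and Adora2a, make enkephalin from the precursor encoded by Penk and project to the external pallidum. Dopamine at Drd2 lowers cyclic AMP and adenosine at Adora2a raises it, and the phosphodiesterase Pde10a breaks cyclic nucleotides down in both kinds of neuron.

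Sham L held 467 D2 nuclei and Sham R 414. The contralateral libraries held 555 in mMCAO and 391 in sMCAO, and the ipsilateral libraries 356 in mMCAO and 182 in sMCAO. Values below run from Sham (left, then right hemisphere) over the contralateral to the ipsilateral pair, each with mMCAO before sMCAO. The median depth of a D2 nucleus was 3003 and 2086.5 UMIs in Sham, 3604 and 3170 on the contralateral side and 3237.5 in the ipsilateral mMCAO library. The sMCAO ipsi library stood apart, with a median of 6111 UMIs per D2 nucleus although its median over all kept nuclei, 2059, was the lowest of the 6. The smallest summed depth of the D2 nuclei of a library was 1054355 UMIs in Sham R and the largest 2158273 UMIs in mMCAO contra. Between libraries, D2 nuclei shared 1 cell barcode between Sham L and the ipsilateral mMCAO library, 1 between mMCAO contra and the ipsilateral sMCAO library, and none in the other pairs. Because each library pools several rats and the 2 libraries of a group come either from the same rats or from lesions of different severity, p-values measure only the spread between these libraries.

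The genes of the rule are given as a description only, since they chose the nuclei. Levels are UMIs summed over the D2 nuclei of a library and scaled to the library's D2 total (CPM), with no correction for gene length. Drd2 stood at 1091 and 1136 CPM in Sham, 1067 and 1042 contralaterally and 929 and 738 ipsilaterally. Adora2a stood at 141, 138, 149, 170, 112 and 118 CPM in the same order. Rgs9, a striatal regulator of G protein signalling that shortens dopamine receptor responses, stood at 1283, 1084, 1076, 1018, 756 and 586 CPM, whereas the retinoic acid receptor gene Rarb stayed between 2207 and 2547 CPM. Most nuclei entered through Drd2, since 1 to 6 D2 nuclei of a library had Adora2a UMIs alone. Nuclei just inside the limit, with exactly 2 UMIs of Drd2 and Adora2a, made up 23.6% and 40.6% of the D2 nuclei in Sham, 17.3% and 22.3% contralaterally and 29.2% and 12.1% ipsilaterally. Just outside it, 111, 207, 82, 83, 102 and 23 nuclei with 1 such UMI met the other limits, with the limit on Drd1 left aside.

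Most markers that the rule did not use fitted the label, though the distinction from direct pathway neurons was one of degree for some. Penk was at 61.4 CPM in Sham L and 80.6 CPM in Sham R, against 0 and 2.88 CPM in the medium spiny nuclei of the same libraries that had at least 1 Drd1 UMI and none of Drd2 or Adora2a. Gpr6, an orphan receptor of indirect pathway neurons, was detected at 7.84 to 24 CPM over the 6 libraries, and Gpr52 at 22 to 30.7 CPM. Tac1, which encodes substance P, lay between 1.5 and 6.07 CPM, Pdyn, which encodes dynorphin, between 0 and 2.25 CPM and Isl1, a transcription factor of direct pathway neurons, between 0 and 2.85 CPM. Other direct pathway genes were not as low: Zfp521, the most abundant of the 10 D1 identity genes in D2 nuclei, lay between 24 and 37.5 CPM, Sfxn1 between 6.54 and 14.4 CPM and Ebf1 between 1.66 and 20.9 CPM. Those levels of Zfp521 are as high as those of Gpr52, and in the nuclei with at least 1 Drd1 UMI Zfp521 lay between 80.6 and 158 CPM. Of the markers common to medium spiny neurons, Foxp1 lay between 1345 and 1863 CPM, Meis2 between 1340 and 1824 CPM, Bcl11b between 209 and 321 CPM and the GABA-synthesising enzyme gene Gad2 between 267 and 379 CPM. Cholinergic interneuron markers were near 0, with Chat between 0 and 5.82 CPM and Slc5a7 between 0.463 and 3.79 CPM.

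Transcripts of other cell types were present at low levels and differed between the groups. The 6 astrocyte markers summed to 54.9 and 119.5 CPM in Sham, 52.4 and 77.3 contralaterally and 164 and 143 ipsilaterally. Slc1a2 was the most abundant of them in every library but the ipsilateral sMCAO one, where Gfap was, and Gfap was at 0 in Sham L. The 7 myeloid markers summed to 3.92, 14.2, 6.49, 15, 46.3 and 78.9 CPM, with Csf1r the most abundant in the Sham and contralateral libraries and Ptprc, at 0 in Sham L, in both ipsilateral ones. The 7 oligodendrocyte lineage markers summed to 174, 220, 165, 275, 194 and 306 CPM. The 6 glutamatergic markers, of which Slc17a7 and Slc17a6 were at 0 by the rule, ran differently, at 28.1, 58.8, 20.4, 27, 28.8 and 7.48 CPM, with the lowest sum in the ipsilateral sMCAO library. D2 nuclei with at least 2 UMIs of glial, myeloid or vascular markers made up 9.42% and 11.1% in Sham, 11.7% and 17.6% contralaterally and 19.4% and 26.4% ipsilaterally. Counts of genes without the nuclei that held such UMIs are given with the comparisons.

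D2 nuclei formed a smaller share of the 2 lesioned libraries than of the other 4 at the deposited depth, whereas the right Sham library had a smaller share than ipsilateral mMCAO among nuclei of at least 2000 UMIs. In Sham they made up 3.56% of the kept nuclei on the left (exact Clopper-Pearson 95% interval 3.25 to 3.89, counting error only) and 3.04% on the right (2.76 to 3.34). On the contralateral side the shares were 3.83% (3.52 to 4.16) and 3.62% (3.28 to 3.99), and on the ipsilateral side 2.75% (2.47 to 3.05) and 2.10% (1.81 to 2.42). The intervals of the right Sham and the ipsilateral mMCAO library overlapped. With the kept nuclei of at least 2000 UMIs thinned to that depth and D2 nuclei chosen anew, the right Sham share was 2.01% and the ipsilateral ones 2.46% and 1.88%, against 3.21% in the left Sham library and 3.28% and 3.23% contralaterally. These shares have another denominator, 8247 of 13626 kept nuclei in Sham R and 4411 of 8665 in sMCAO ipsi, and leave out 181 of 414 D2 nuclei in Sham R and 0 of 182 in sMCAO ipsi, so that they do not correct the shares above. Between MCAO ipsi and Sham, with 2 libraries each, an exact two-sided permutation test cannot go below p = 0.333, and no test of the shares was made. Among neurons alone the order was different: D2 nuclei were 4.43% and 3.64% of the neuronal nuclei in Sham, 5.16% and 4.84% contralaterally and 3.99% and 5.66% ipsilaterally. The ipsilateral values overlapped with those of both other groups, while both contralateral shares lay above both Sham shares. Set against the medium spiny nuclei with at least 1 Drd1 UMI, D2 nuclei were 74.2% and 76.5% of both kinds in the Sham libraries, 70.0% and 72.7% in the contralateral ones, and 76.4% and 61.1% (55.3 to 66.6) in the ipsilateral ones. The part of the depth of the nuclei in these shares was not tested. At 2000 UMIs, with 2 Drd1 UMIs required, D2 nuclei were 92.2% of both kinds in sMCAO ipsi (83 of 90 nuclei) and 96.3% to 98.2% in the other 5 libraries.

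**Figure D1:**
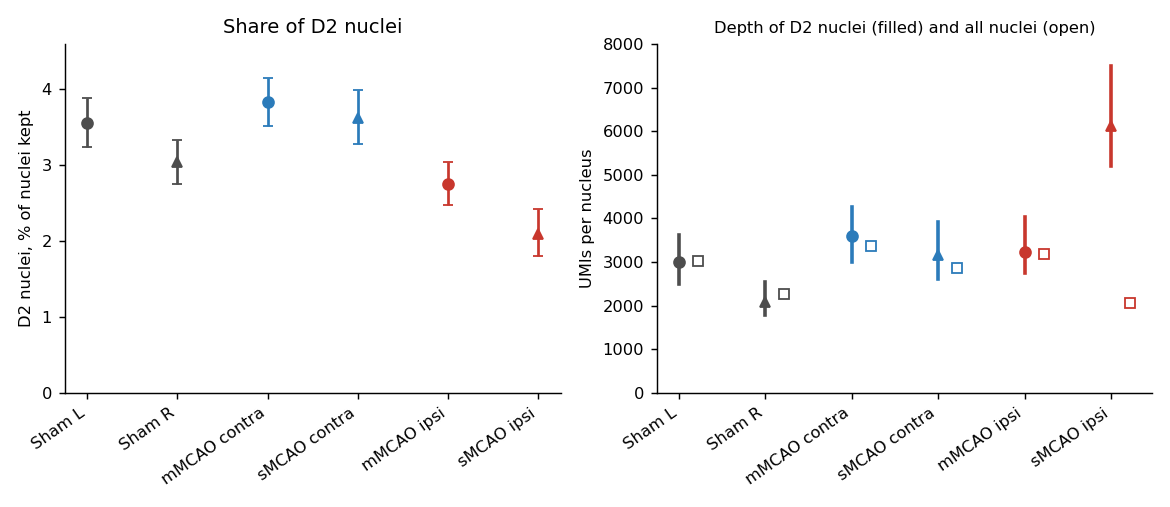
Left, D2 nuclei as a percentage of the kept nuclei of each library, with exact 95% intervals for counting error. Right, the median number of UMIs per D2 nucleus (filled symbols, with a bar from the lower to the upper quartile) and per kept nucleus of any type (open squares). Grey marks Sham, blue MCAO contra and red MCAO ipsi. The ipsilateral shares, 2.75% and 2.10%, lie below the other 4 without thinning (among nuclei of at least 2000 UMIs, thinned, Sham R, at 2.01%, lies below mMCAO ipsi, at 2.46%), and the D2 nuclei of sMCAO ipsi, at 6111 UMIs, are the deepest.

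The nearest population for comparison was the direct pathway medium spiny neuron. Drd1 was counted poorly: requiring 2 Drd1 UMIs, to mirror the rule for D2 nuclei, left 19, 7, 29, 23, 14 and 25 D1 nuclei in the 6 libraries in the order used above, and requiring 1 left 162, 127, 238, 147, 110 and 116. Between the summed D2 nuclei and the D1 nuclei of the same library, with the library as a block, edgeR's quasi-likelihood test called 78 of 8458 genes higher in D2 nuclei (0.922%) and 66 lower (0.78%) at a Benjamini-Hochberg adjusted p under 0.05 and a log2 fold change of at least 0.6. With DESeq2's size factors in edgeR the split was 54 higher and 87 lower. With 1 Drd1 UMI as the limit, 87 of 9327 genes were higher (0.933%) and 170 lower (1.82%). The nuclei had been parted by Drd2, Adora2a and Drd1, so these calls describe what goes with that division. The genes of the rule were left out of the tests.

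Among called genes of at least 50 CPM in the higher group, with the same direction in all 6 libraries, Penk showed the largest difference in favour of D2 nuclei. Against nuclei with at least 1 Drd1 UMI its log2 fold change was 4.73 ± 0.19 (SE, adjusted p = 2.48e-23). The second opioid gene among the 8 largest differences within that limit was Oprd1, which encodes the delta receptor that enkephalin binds. Oprd1 was at 92.1, 99.6, 85.7, 98.3, 50.8 and 67.3 CPM in D2 nuclei and at 0 to 22.5 CPM in the nuclei with Drd1 (log2 fold change 2.95 ± 0.21, adjusted p = 7.25e-15). Grik3, a kainate receptor subunit, was higher by 2.62 ± 0.12 on the log2 scale, the unconventional myosin gene Myo5c by 2.02 ± 0.13, Gucy1a1, a subunit of the nitric oxide receptor guanylyl cyclase, by 1.71 ± 0.07, the metalloprotease gene Tll1 by 1.58 ± 0.13, the muscarinic receptor gene Chrm3 by 1.44 ± 0.08 and the netrin receptor gene Unc5d by 1.44 ± 0.08. The same direction in every library was a condition for naming these 8 genes and is no result.

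The largest differences in the other direction, among genes of at least 50 CPM in the higher group, began with Ebf1, a transcription factor that direct pathway neurons need for their development, which was at 1.66 to 20.9 CPM in D2 nuclei and at 213 to 396 CPM in nuclei with Drd1 (log2 fold change -5.06 ± 0.16). Tac1 followed at -4.42 ± 0.23, then Sntg2, a syntrophin gene, at -2.57 ± 0.13, Lingo2 at -2.48 ± 0.13, the neuregulin receptor gene Erbb4 at -1.97 ± 0.09, the potassium channel gene Kcnk13 at -1.94 ± 0.20, the zinc finger gene Zfp521 at -1.91 ± 0.13 and the cation channel gene Trpc7 at -1.78 ± 0.19. Below that level, Pdyn (-4.47 ± 0.41, adjusted p = 1.84e-11) and Isl1 (-4.18 ± 0.45, adjusted p = 9.5e-10) were lower by more than Sntg2. Against the larger set of 6363 medium spiny nuclei with no Drd2 or Adora2a UMI, whatever their Drd1 count, Penk was higher by 3.67 ± 0.14 and Ebf1 lower, with a log2 fold change of -4.71 ± 0.16. Adarb2, by which the paper divides interneurons, was among the 8 largest differences in favour of this set at 50 CPM or more. Whether the set holds neurons other than medium spiny ones was not tested. Trpc7 was not called against the D1 nuclei with 2 Drd1 UMIs (log2 fold change 0.13 ± 0.60).

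**Figure D2:**
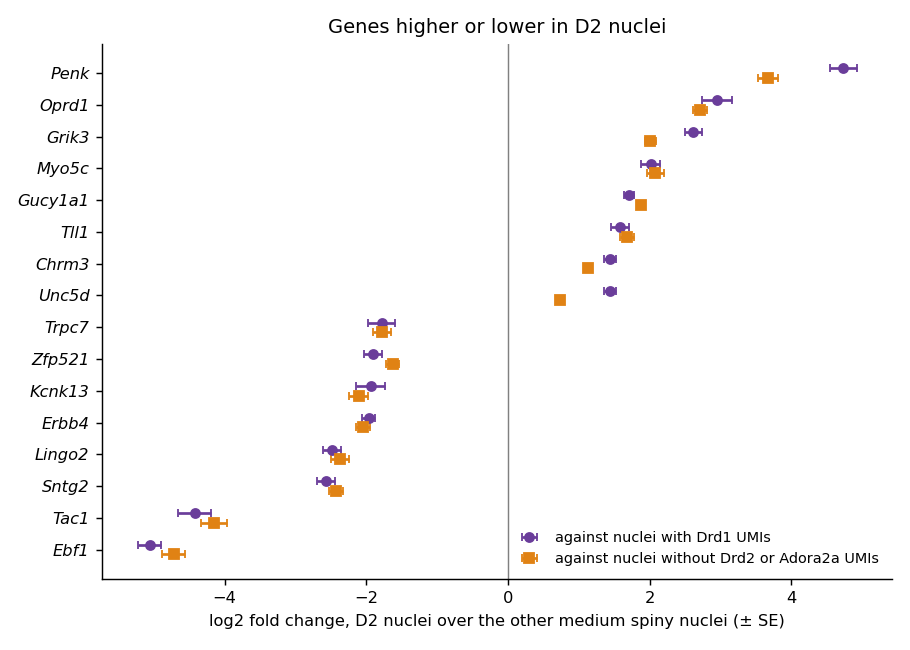
log2 fold change (horizontal axis, with its standard error) between D2 nuclei and medium spiny nuclei with at least 1 Drd1 UMI (circles) or with no Drd2 or Adora2a UMI (squares) for the 8 genes with the largest differences in each direction among those of at least 50 CPM. Penk, at 4.73 and 3.67, and Ebf1, at -5.06 and -4.71, lie at the ends of the scale, and Unc5d has 1.44 against 0.74.

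Within D2 nuclei, the lesioned hemisphere differed from Sham in 215 of 9525 genes tested (2.26%), by edgeR's quasi-likelihood test on the sums per library with all 6 libraries in the fit, an adjusted p under 0.05 and a log2 fold change of at least 0.6. Of these, 120 were higher (1.26%) and 95 lower (0.997%) in MCAO ipsi, and the median log2 fold change of all tested genes was 0.01. The count rested on the Sham libraries. The refits that follow reuse the remaining libraries that chose the 215 genes, so a kept direction in them is no separate support. Without Sham L, which left Sham R as the only Sham library and its spread taken from the other groups, 2 genes were called, Col19a1 and Erbb4, both lower, and without Sham R 40 were called, while all 215 kept their direction in both cases. Without mMCAO ipsi 471 genes were called and without sMCAO ipsi 131. Without the nuclei that held UMIs of glial, myeloid or vascular markers the count was 126, with 60 genes higher and 66 lower. DESeq2 called 58, 26 higher and 32 lower.

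Among the genes raised in the lesioned hemisphere were transcripts that medium spiny neurons are known for. Penk was at 61.4 and 80.6 CPM in Sham, 164 and 170 contralaterally and 152 and 253 ipsilaterally. Both ipsilateral libraries lay above both Sham libraries, and the contralateral ones lay among the ipsilateral values (ipsi against Sham log2 fold change 1.45 ± 0.20, adjusted p = 0.00118, and adjusted p = 0.099 without Sham L). Gad1, the other enzyme of GABA synthesis, was at 141, 168, 210, 187, 281 and 340 CPM in the same order, so that it rose in the ipsilateral libraries above all 4 others (log2 fold change 0.94 ± 0.13, adjusted p = 0.00118). Npl, an enzyme of sialic acid breakdown, was at 49.7, 58.8, 62.1, 64.5, 137 and 131 CPM and rose likewise (1.25 ± 0.15, adjusted p = 0.000778). Stat3, a transcription factor of cytokine and axon injury signalling, rose from 13.7 and 21.8 CPM in the Sham libraries to 43.2 and 43.2 CPM (1.26 ± 0.25, adjusted p = 0.0138). Gabrg1, a GABA-A receptor subunit, was at 33.3 and 29.4 CPM in Sham and at 56.9 and 94.7 CPM in MCAO ipsi (1.17 ± 0.26, adjusted p = 0.0211). In non-neuronal nuclei Stat3 was at 58.9 and 48.2 CPM in Sham and 185 and 276 CPM in MCAO ipsi, and Gabrg1 at 98.8 and 151 against 148 and 161 CPM. Without the D2 nuclei that held markers of other cell types, neither Stat3 (0.96, adjusted p = 0.128) nor Gabrg1 (1.08, adjusted p = 0.0916) was called.

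Of the 120 raised genes, 94 (78.3%) were more abundant in non-neuronal than in D2 nuclei of MCAO ipsi, as were 70.8% of all tested genes. Fth1, a subunit of the iron store ferritin, was at 8.5, 12.3, 19, 27, 30.3 and 115 CPM in D2 nuclei (2.74 ± 0.52, adjusted p = 0.00994), and the severe was 3.81 times as high as the moderate ipsilateral library (exact 95% interval 2.66 to 5.55, counting error only). Tgfbr1, a receptor for TGF-beta, was at 20.3, 17.1, 21.8, 27, 72.8 and 59 CPM (1.73 ± 0.23, adjusted p = 0.00111) and Arhgap24, which restrains the small GTPase Rac, at 14.4, 17.1, 19, 29.3, 50.1 and 72.3 CPM (1.89 ± 0.27, adjusted p = 0.0016). Their levels in nuclei of the same ipsilateral libraries without neuronal transcripts were 678 and 731 CPM for Tgfbr1 and 634 and 568 CPM for Arhgap24. Without the D2 nuclei that held markers of other cell types, the log2 fold change of Tgfbr1 was reduced to 0.65 (adjusted p = 0.52) and that of Arhgap24 to 1.05 (adjusted p = 0.24), whereas Penk, Npl, Gad1 and Creb5 stayed called. Creb5, a CREB family factor, was at 15, 20.9, 12.5, 24, 60.7 and 54.8 CPM (1.65 ± 0.27, adjusted p = 0.00439), and in non-neuronal nuclei it was lower in MCAO ipsi (355 and 299 CPM) than in Sham (555 and 407 CPM). The synaptic membrane protein gene Prrt1 (1.22 ± 0.31, adjusted p = 0.0457) and the actin gene Actb (1.18 ± 0.25, adjusted p = 0.0175) completed the 8 largest rises among genes of at least 50 CPM, and neither was called without sMCAO ipsi (adjusted p = 0.4 and 0.13). Of the raised genes, 87 (72.5%) were also higher in both ipsilateral than in both Sham libraries when only non-neuronal nuclei were summed, against 41.7% of all 9525 genes. The part of carried-over glial RNA in these rises was not tested.

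**Figure D3:**
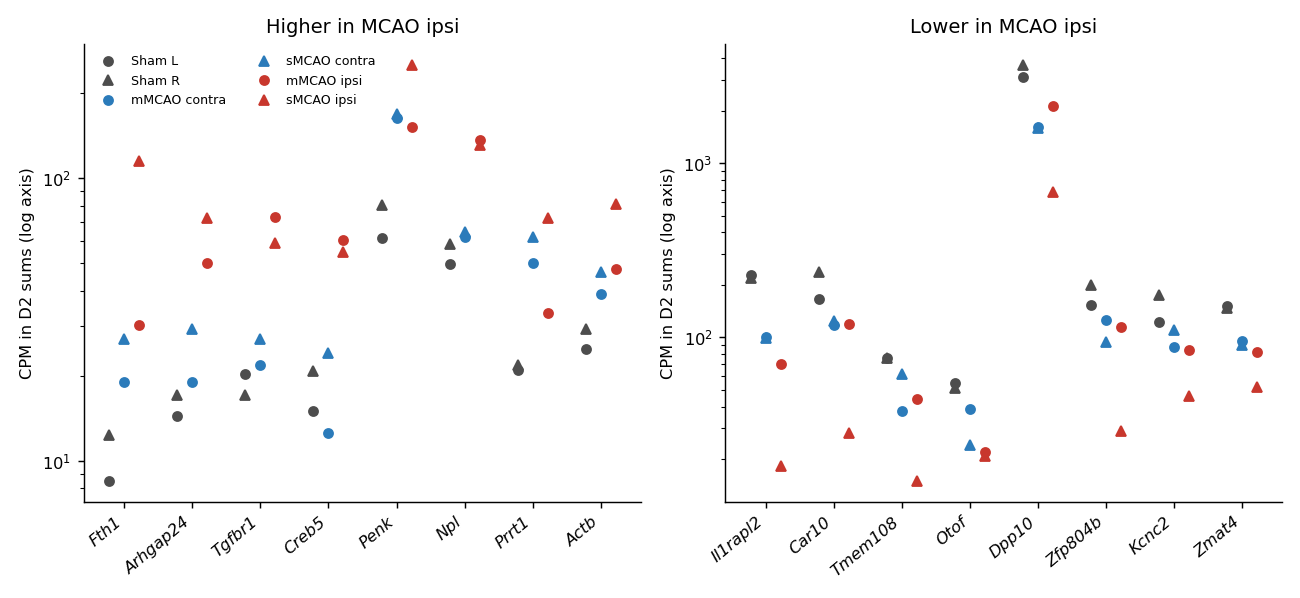
CPM (log axis) in the summed D2 nuclei of each library for the 8 largest rises (left) and the 8 largest falls (right) of MCAO ipsi against Sham. Both were taken among called genes of at least 50 CPM in the higher group. Circles are Sham L and mMCAO libraries, triangles Sham R and sMCAO libraries; grey is Sham, blue MCAO contra and red MCAO ipsi. Npl, Tgfbr1 and Creb5 are similar in both ipsilateral libraries, whereas Fth1, at 30.3 and 115 CPM, and Il1rapl2, at 70.6 and 18.3 CPM, are not.

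The 8 largest falls among genes of at least 50 CPM began with Il1rapl2. Il1rapl2, of the interleukin-1 receptor family, was at 228 and 220 CPM in Sham, 101 and 99.1 contralaterally and 70.6 and 18.3 ipsilaterally (log2 fold change -2.38 ± 0.28, adjusted p = 0.000778). Dpp10, which modulates A-type potassium channels, was at 3118, 3672, 1621, 1583, 2132 and 687 CPM (-1.33 ± 0.30, adjusted p = 0.0254), so that the contralateral libraries were lower than mMCAO ipsi. Kcnc2, a fast delayed rectifier potassium channel, was at 122, 175, 87.6, 110, 84.2 and 45.7 CPM (-1.22 ± 0.23, adjusted p = 0.00865). Otof, the exocytosis protein otoferlin, was at 54.2, 51.2, 38.5, 24, 22 and 20.8 CPM (-1.37 ± 0.24, adjusted p = 0.00674), and the zinc finger gene Zmat4 at 151, 147, 94.5, 90.8, 82.7 and 51.5 CPM (-1.21 ± 0.18, adjusted p = 0.00171). Car10, Tmem108 and Zfp804b had log2 fold changes of -1.47 ± 0.33, -1.41 ± 0.31 and -1.32 ± 0.33 (adjusted p = 0.0254, 0.0225 and 0.0412). Their calls were lost in 5, 6 and 7 alternatives and kept in 10, 9 and 8, and none of them was called without Sham L or without Sham R. In all 8, sMCAO ipsi was the lowest of the 6 libraries.

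Both Il1rapl2 and Dpp10 were also lower in the ipsilateral than in the Sham libraries in non-neuronal nuclei. There, in the library order used for D2 nuclei, Il1rapl2 was at 274, 220, 109, 106, 68.8 and 13.1 CPM, in the same order of libraries as in D2 nuclei. Dpp10, whose order was different, was at 2912, 3135, 1506, 1440, 936 and 197 CPM. Otof was an exception, at 0.806 to 6.91 CPM there. Of the 95 genes that fell in D2 nuclei, 69 (72.6%) were also lower in both ipsilateral than in both Sham libraries in non-neuronal nuclei, against 21.2% of all tested genes. The part of RNA from other cells in the falls was not tested.

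**Figure D4:**
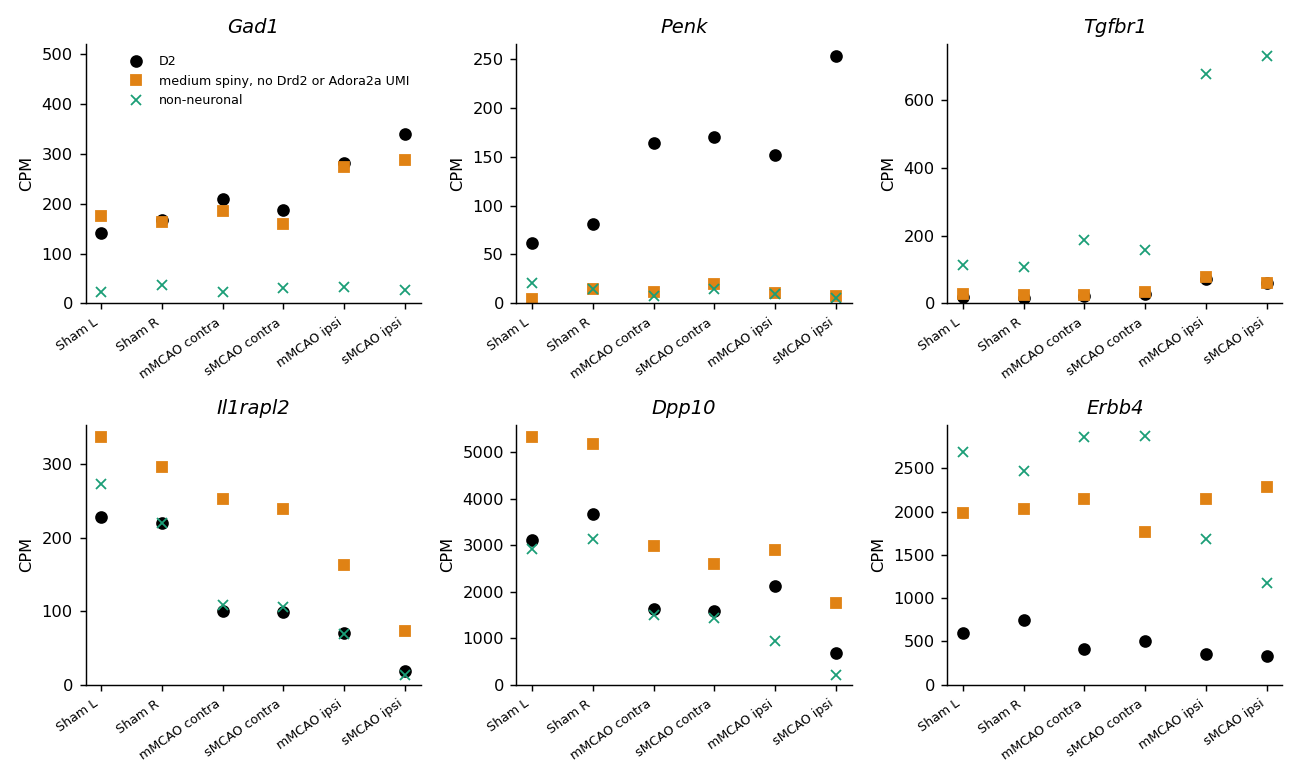
CPM per library of 6 genes in the summed D2 nuclei (circles), in medium spiny nuclei with no Drd2 or Adora2a UMI (squares) and in non-neuronal nuclei (crosses). Gad1 is low in non-neuronal nuclei and Penk high in D2 nuclei alone, Tgfbr1 is highest in ipsilateral non-neuronal nuclei, and Il1rapl2 in D2 nuclei lies close to its non-neuronal level in every library.

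Gene lists were then read one by one for MCAO ipsi against Sham, where 2.26% of all genes were called. In the cyclic AMP list, which spans the receptors' G proteins, adenylyl cyclases, phosphodiesterases and their targets, 0 of 31 tested members were called and the median log2 fold change was -0.11. Pde10a was at 3579, 3262, 3655, 3523, 2540 and 2341 CPM, lower in both ipsilateral libraries than in the other 4, with an adjusted p of 0.00505 but a log2 fold change of -0.56 ± 0.10 that missed the limit of 0.6. Arpp21, a striatal target of protein kinase A, had a log2 fold change of -0.46 ± 0.09 (adjusted p = 0.014), the calmodulin-dependent phosphodiesterase gene Pde1b one of -0.57 ± 0.14 (adjusted p = 0.045) and Adcy5, the main adenylyl cyclase of the striatum, one of -0.40 ± 0.11 (adjusted p = 0.074), with 853 and 740 CPM in Sham and 662 and 608 CPM in MCAO ipsi. Of the 16 medium spiny identity genes, Gad1 alone was called, and Foxp2 had 0.35 ± 0.10 (adjusted p = 0.081). Among the D2 identity genes Penk alone of 6 was called. Grik3 went the other way, at 230 and 180 CPM in Sham and 162 and 132 CPM in MCAO ipsi. Its log2 fold change of -0.56 ± 0.15 (adjusted p = 0.0477) missed the limit of 0.6. Gpr6 was at 7.84 and 13.3 CPM in Sham, 22.7 and 24 in MCAO contra and 22 and 18.3 in MCAO ipsi (0.92 ± 0.34, adjusted p = 0.17).

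The channel and receptor lists were read next. In the potassium channel list 4 of 34 fell and none rose, with a median of -0.35. They were Dpp10 and Kcnc2, the M-current subunit gene Kcnq3 (1303 and 1223 CPM in Sham, 829 and 916 CPM in MCAO ipsi, -0.61 ± 0.10, adjusted p = 0.00411) and the A-type channel gene Kcnd3 (-0.66 ± 0.14, adjusted p = 0.016). Of 32 sodium and calcium channel genes only the ryanodine receptor gene Ryr2 passed, and it fell (-0.61 ± 0.12, adjusted p = 0.013). Of 30 ionotropic glutamate receptor and scaffold genes 2 fell, the NMDA receptor subunit gene Grin2a (859 and 870 CPM in Sham, 659 and 500 CPM in MCAO ipsi, -0.64 ± 0.12, adjusted p = 0.011) and the postsynaptic density gene Dlgap1 (-0.62 ± 0.13, adjusted p = 0.017). Of 20 genes of GABA synthesis and receptors, Gad1 and Gabrg1 rose and Gabbr2, a GABA-B receptor subunit, fell (-0.88 ± 0.23, adjusted p = 0.047). Of 17 neuropeptide and modulator receptor genes, Penk rose and the serotonin receptor gene Htr4 (-0.70 ± 0.11, adjusted p = 0.00372) and Oprd1 (-0.77 ± 0.17, adjusted p = 0.021) fell, so the enkephalin precursor and the delta receptor had opposite signs. Without the nuclei that held markers of other cell types, Dpp10, Htr4, Oprd1, Gad1 and Penk stayed called, while the log2 fold changes of Ryr2 (-0.59), Grin2a (-0.58), Dlgap1 (-0.57) and Kcnq3 (-0.51) fell short of the limit of 0.6 with adjusted p-values between 0.0186 and 0.0308. Kcnc2 (-1.05, adjusted p = 0.0631) and Gabbr2 (-0.78, adjusted p = 0.0599) missed the limit on p, and Kcnd3 (-0.53, adjusted p = 0.0725) missed both.

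The stress and injury lists are small beside the 2.26% called over all genes, so that a list without a call is no result about it. None of the 4 testable immediate early genes, 16 heat shock genes, 9 genes of the unfolded protein and integrated stress responses, 24 glycolysis and hypoxia genes, 12 apoptosis regulators, 9 neurotrophin signalling genes and 11 striosome and matrix genes passed, and the median log2 fold changes of these lists lay between -0.29 and 0.08. The endoplasmic reticulum chaperone gene Hsp90b1 was at 30.7 and 38.9 CPM in Sham and 53.1 and 66.5 CPM in MCAO ipsi (0.73 ± 0.20, adjusted p = 0.063). Ntrk2, the receptor for BDNF, had a log2 fold change of -0.52 ± 0.11 (adjusted p = 0.017), under the limit of 0.6. Stat3 alone of 7 axon injury and growth genes was called, and Stat2, the only interferon gene with enough counts, was at 14.4, 2.85, 8.34, 15, 12.9 and 13.3 CPM (adjusted p = 0.775). Of the marker genes of other cell types, Gfap was at 0, 4.74, 2.32, 8.26, 34.9 and 64.8 CPM, Aqp4 at 1.31, 1.9, 1.39, 0.751, 10.6 and 9.97 CPM, and Ptprc at 0, 1.9, 0.927, 1.5, 15.9 and 28.2 CPM. These genes passed the filter on low counts through the ipsilateral libraries, so no count of calls is given for their lists.

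The distribution over single nuclei was read after each nucleus was thinned to 2000 UMIs, which left out 42, 181, 11, 27, 12 and 0 D2 nuclei of the 6 libraries. At that depth Penk had a UMI in 11.8% (exact 95% interval 8.86 to 15.2) and 16.7% (12.2 to 22.2) of D2 nuclei in Sham. It had one in 25% (21.4 to 28.9) and 25% (20.6 to 29.8) contralaterally and in 25.3% (20.8 to 30.2) and 29.1% (22.6 to 36.3) ipsilaterally. The Sham shares were the lowest. The interval of Sham L lay below those of the 4 MCAO libraries, that of Sham R overlapped with 3 of them but not with that of sMCAO ipsi, and the 4 MCAO intervals overlapped each other. These intervals hold counting error over the nuclei of a library only. They do not measure the spread between rats or libraries, and no test of these shares between groups was made. Before thinning the shares were 15.8%, 16.4%, 38.4%, 38.1%, 36.0% and 61.5%. In medium spiny nuclei with Drd1, thinned likewise, Penk had a UMI in 0% to 2.58%, and in glutamatergic nuclei in 0.347% to 1.42%. Whether the Penk UMIs of these nuclei were free RNA or their own was not tested. Pde10a was found in nearly all D2 nuclei, with a thinned median of 7 UMIs in each Sham and contralateral library and of 5 and 4 in the ipsilateral ones. The share of D2 nuclei with no Pde10a UMI at 2000 UMIs was 1.18% and 2.15% in Sham, 1.1% and 3.3% contralaterally and 4.65% and 8.79% ipsilaterally. In D2 nuclei the thinned mean of Pde10a was 7.37 and 7.27 UMIs in Sham and 5.39 and 4.63 UMIs in MCAO ipsi. In glutamatergic nuclei it was lower on the ipsilateral side as well, at 2.88 and 2.72 UMIs in Sham, 1.84 and 2.11 contralaterally and 0.939 and 0.939 ipsilaterally. Whether these UMIs were free RNA or the nuclei's own, and the part of RNA from other cells in the D2 values, was not tested.

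**Figure D5:**
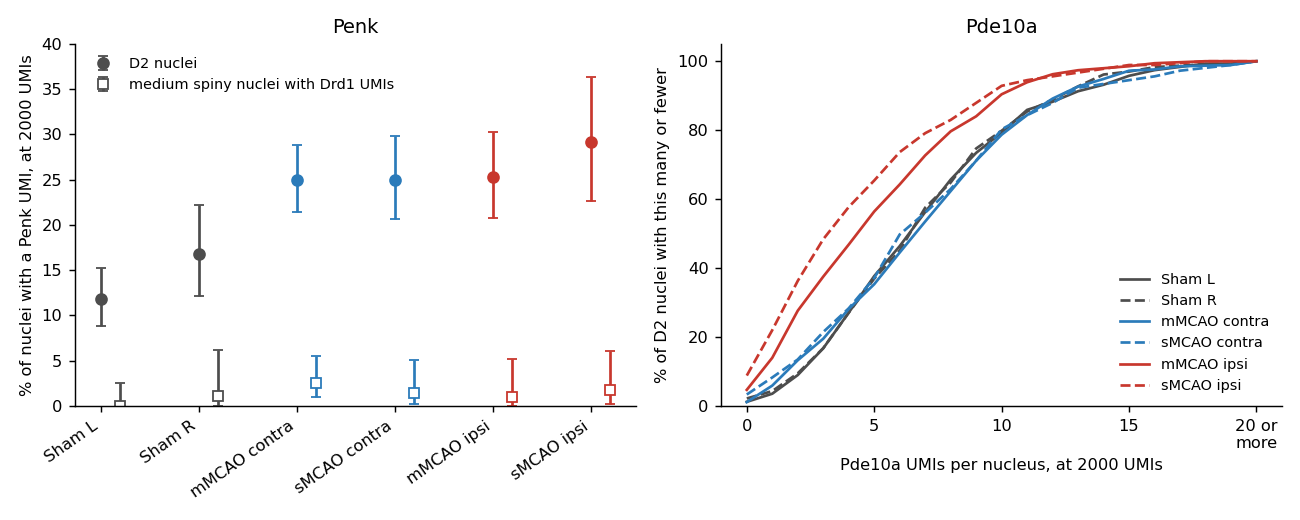
Left, percentage of nuclei with a Penk UMI after thinning to 2000 UMIs, in D2 nuclei (filled) and in medium spiny nuclei with at least 1 Drd1 UMI (open), with exact 95% intervals for counting error only. Right, cumulative percentage of D2 nuclei against their Pde10a UMIs at 2000 UMIs, the last step holding 20 or more; solid lines are Sham L and mMCAO libraries and dashed lines Sham R and sMCAO libraries. The Penk shares of Sham, 11.8% and 16.7%, lie below the others, and both ipsilateral Pde10a curves are shifted to fewer UMIs.

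Against the contralateral hemisphere of the same rats, 128 of 9525 genes were called in the D2 nuclei of MCAO ipsi (1.34%), 76 higher (0.798%) and 52 lower (0.546%). The rises again included Creb5 (log2 fold change 1.72 ± 0.25, adjusted p = 0.00265), Tgfbr1 (1.43 ± 0.20), Arhgap24 (1.35 ± 0.24) and Npl (1.05 ± 0.14). Ctnnal1, a catenin-like gene, was at 40.3 and 29.3 CPM in the contralateral and 111 and 69.8 CPM in the ipsilateral libraries (1.31 ± 0.22, adjusted p = 0.00629), and in non-neuronal nuclei it was at 6.45 to 30.1 CPM. Spred1, an inhibitor of Ras signalling, rose by 1.18 ± 0.18 and Lrmda by 1.07 ± 0.16, and of these Lrmda was far higher in ipsilateral non-neuronal nuclei (1040 and 1296 CPM) than in D2 nuclei (112 and 101 CPM). Fign was at 1.07 ± 0.23 (adjusted p = 0.0251), but its call was lost in 12 alternatives and kept in 4. Penk was not called (0.24, adjusted p = 0.614).

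Of the 16 medium spiny identity genes 1 fell against the contralateral side (Scn4b), 1 rose (Gad1) and 14 were not called, with a median log2 fold change of -0.18. Scn4b, a sodium channel beta subunit, was at 88 and 85.6 CPM in MCAO contra and 45.5 and 39.9 CPM in MCAO ipsi (-1.06 ± 0.18, adjusted p = 0.00765), Rasgrp2, a Rap exchange factor, at 117 and 101 against 53.1 and 44.9 CPM (-1.20 ± 0.16, adjusted p = 0.00144), and Hpca, the calcium sensor hippocalcin, at 65.8 and 66.8 against 31.9 and 29.1 CPM (-1.15 ± 0.20, adjusted p = 0.009). Emid1 (-1.31 ± 0.18), Pld5 (-1.19 ± 0.18), Kctd17 (-1.18 ± 0.15), the muscarinic receptor gene Chrm3 (-1.05 ± 0.19) and the receptor tyrosine kinase gene Alk (-1.0 ± 0.14) made up the rest of the 8. In Sham, Scn4b was at 74.5 and 55 CPM and Rasgrp2 at 71.2 and 71.1 CPM, between the levels of the lesioned and the contralateral hemisphere. Without nuclei holding markers of other cell types 60 genes were called, without mMCAO contra 41, without mMCAO ipsi 272, and with the 2 infarction severities as a block 159. DESeq2 called 21, 8 higher and 13 lower.

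Between the contralateral hemisphere and Sham 2 of 9525 genes were called (0.021%), the unnamed gene ENSRNOG00000065867 (59.5 and 53.1 CPM in Sham, 20.4 and 12.8 CPM in MCAO contra) and AABR07000398.1 (160 and 122 against 68.6 and 61.5 CPM), both lower. DESeq2 called 3. Before adjustment, 383 genes stood higher and 429 stood lower at p under 0.05. Penk lay at the limit, with both contralateral libraries above both Sham libraries (log2 fold change 1.21, adjusted p = 0.051), and it was the third gene called by DESeq2. Other genes stood apart without a call, such as Il1rapl2 (-1.20, adjusted p = 0.132) and Dpp10 (-1.12, adjusted p = 0.256), so that the low count does not show that the hemispheres were alike. With only these 4 libraries in the fit 33 genes were called, and without the filter on low counts 60. The same Sham libraries served both comparisons. Without the moderate or the severe ipsilateral library, which enters this comparison only through the shared spread and the filter on low counts (10083 or 10056 genes tested), the count was 46 or 45, and without Sham L or sMCAO contra it was 0.

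Few of the ipsilateral changes could be shown to be particular to D2 nuclei. Against the D1 nuclei with 2 Drd1 UMIs the difference between the changes passed for 1 gene of 8458, Unc5d, and rested on 8 and 6 UMIs in Sham and 0 and 1 in MCAO ipsi in the D1 sums. Against nuclei with at least 1 Drd1 UMI 5 genes passed, Erbb4, Gpc5, Rgs6, Zmat4 and the unnamed ENSRNOG00000066703. Against all medium spiny nuclei without Drd2 or Adora2a UMIs 5 passed as well, Erbb4, Rgs6, Myo5c, Il1rapl2 and ENSRNOG00000066703. A difference that passed is not always a change in D2 nuclei. There Erbb4, Zmat4, Myo5c and Il1rapl2 were called. Unc5d (-0.03 ± 0.12), Gpc5 (-0.20 ± 0.26) and Rgs6 (-0.78 ± 0.27) were not (adjusted p = 0.938, 0.764 and 0.142). Gpc5 fell in the nuclei with at least 1 Drd1 UMI (-1.32 ± 0.18, adjusted p = 2.19e-05). Erbb4 was at 593 and 752 CPM in the Sham and 359 and 332 CPM in the ipsilateral D2 nuclei (ipsi against Sham -1.03 ± 0.13, adjusted p = 0.000778), whereas in medium spiny nuclei without Drd2 or Adora2a UMIs it was at 1988 and 2036 CPM in Sham and 2145 and 2287 CPM in MCAO ipsi (0.03 ± 0.09). The difference between these changes was -1.08 ± 0.13 (adjusted p = 5.62e-06). Non-neuronal nuclei held 2684 and 2472 CPM of Erbb4 in Sham and 1679 and 1174 CPM in MCAO ipsi, above the D2 level in every library, and the part of RNA from other cells in the D2 level was not tested. Myo5c rose in D2 nuclei (0.92 ± 0.19, adjusted p = 0.0151) and was not called in the other medium spiny nuclei (-0.28 ± 0.24), with a difference of 1.15 ± 0.22 (adjusted p = 0.0243). Il1rapl2 fell in both, and more in D2 nuclei (difference -0.91 ± 0.18, adjusted p = 0.0278). In nuclei with at least 1 Drd1 UMI, however, Il1rapl2 fell by 2.17 ± 0.29 on the log2 scale (adjusted p = 2.19e-05), and the difference from D2 nuclei did not pass (-0.42 ± 0.25, adjusted p = 0.987). Penk changed by 1.45 ± 0.20 in D2 nuclei and by -0.07 ± 0.44 in the others, and the difference of 1.42 ± 0.36 did not pass (adjusted p = 0.20). Gad1 rose in both (0.94 ± 0.13 and 0.62 ± 0.09), and Pde10a fell by 0.96 ± 0.07 on the log2 scale in the nuclei without Drd2 or Adora2a UMIs (adjusted p = 2.58e-05) against the -0.56 ± 0.10 of D2 nuclei. In nuclei with at least 1 Drd1 UMI the change of Pde10a was -0.57 ± 0.11, and the difference from D2 nuclei passed against neither comparator (adjusted p = 0.202 and 0.99).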

How the data were processed

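Per the labels, nuclei were isolated on an iodixanol gradient and sequenced as 10x 5' libraries, and the authors made the deposited UMI counts with Cell Ranger 7.0.0 on mRatBN7.2. Each of the 6 matrices holds whole counts for 30560 genes, unnormalised. Counts of D2 nuclei were summed per library and tested with edgeR 4.0.16 (quasi-likelihood, TMM factors, genes kept by its expression filter) in R 4.3.3, with DESeq2 1.42.0 as an alternative. The 11 genes of the selection were left out, p-values were adjusted by Benjamini-Hochberg over all genes tested, and calls needed an adjusted p under 0.05 and a log2 fold change of 0.6. The study pooled the same libraries but tested nuclei as replicates.

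Summed depth, from 1054355 UMIs, limits precision to genes of a few CPM. The members and gene lists were chosen with earlier results of these data known. Of 464 list genes 437 matched 1 symbol, and 7162 genes carry identifiers only. Named genes are, per comparison, up to 8 called rises and 8 falls of at least 50 CPM in the higher group. Their libraries do not overlap between groups or, for D2 against D1 nuclei, differ in the same direction in all 6 libraries. Up to 6 members per list and genes chosen for their role are named besides. Where a count of 5 or fewer lay outside this, its genes are named after their values were seen.

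Doublets were scored against simulated doublets and 5% of nuclei per library marked. Marked nuclei stayed in the main sums and made up 7.87% to 14.3% of D2 nuclei. The ipsilateral and contralateral libraries of one severity come from the same rats, and the deviations of the mMCAO pair correlated at 0.0164 over 3227 genes. Tests were checked on simulated counts. For MCAO ipsi against Sham, 19.7% of genes changed 1.5-fold were recovered, 48.3% of those changed 2-fold and 75.4% of those changed 3-fold. Between D2 nuclei and nuclei with at least 1 Drd1 UMI these shares were 37.1%, 80.4% and 93.2%. Each check called 2 unchanged genes. A gene that was not called may therefore have changed.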

Additional observations from a re-analysis of the deposited data

Results flagged for a closer look

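The change between Sham and MCAO ipsi differed between D2 nuclei and other medium spiny nuclei for a few genes, by a test of the difference itself in edgeR. Against D1 nuclei with 2 Drd1 UMIs this was Unc5d, with a difference of 4.93 ± 1.01 on the log2 scale (adjusted p = 0.00943), which rests on 1 Unc5d UMI in the ipsilateral D1 sums. Against nuclei with at least 1 Drd1 UMI, Erbb4 differed by -0.96 ± 0.17 and Gpc5, a glypican gene, by 1.05 ± 0.18 (adjusted p = 0.00578 for both). Gpc5 was at 224 and 329 CPM in the Sham and 338 and 156 CPM in the ipsilateral D2 nuclei, and at 393 and 466 against 231 and 138 CPM in nuclei with Drd1. Rgs6, a regulator of G protein signalling, differed by -1.14 ± 0.21 (adjusted p = 0.0099), and Zmat4 by -1.26 ± 0.26 (adjusted p = 0.0428).

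Against medium spiny nuclei without Drd2 or Adora2a UMIs, Erbb4 differed by -1.08 ± 0.13 (adjusted p = 5.62e-06), Rgs6 by -1.0 ± 0.19 (adjusted p = 0.0243), Myo5c by 1.15 ± 0.22 (adjusted p = 0.0243) and Il1rapl2 by -0.91 ± 0.18 (adjusted p = 0.0278). Rgs6 was at 147 and 212 CPM in Sham and 154 and 59 CPM in ipsilateral D2 nuclei, so that the moderate library lay within the Sham values and the severe one below them. An unnamed gene, ENSRNOG00000066703, also passed in both comparisons. These genes were read out of the tables after their values were seen.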

How the results depend on the processing

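With Sham as the base, the count of called genes ran from 2 (without Sham L) to 471 (without mMCAO ipsi) when 1 library was left out, against 215. The ipsilateral against contralateral count ran from 41 to 272 against 128, the contralateral against Sham count from 0 to 46 against 2, and the count of genes whose change differed between D2 and D1 nuclei from 0 to 2 against 1. A group left with 1 library was assumed to vary like the others. For the 3 comparisons in this order, DESeq2 called 58, 21 and 3 genes, no filter on low counts 488, 281 and 60, nuclei without UMIs of other cell types 126, 60 and 5, a limit of 1 receptor UMI 334, 194 and 6, and nuclei thinned to 2000 UMIs before selection, chosen after seeing the data, 51, 13 and 5. The contralateral against Sham count was 33 with only its 4 libraries and 4 without doublets. Between D2 and D1 nuclei DESeq2 called 71, and 257 or 542 genes were called with the added comparators (1 Drd1 UMI, or no Drd2 or Adora2a UMI), with 5 differing changes each; DESeq2, no replicate block and no doublets gave 0 differing changes. Pairing by infarction severity as a replicate block was fitted for the ipsilateral against contralateral comparison, where it gave 159 calls. Leaving out the library block between D2 and D1 nuclei gave 143 calls against 144. The causes were not tested. The share of D2 nuclei, in the library order of the report, was 3.21%, 2.01%, 3.28%, 3.23% and 2.46% among nuclei of at least 2000 UMIs after thinning, with 1.88% in the ipsilateral sMCAO library, and 4.38%, 4.56%, 4.37%, 4.36% and 3.52% with 1 receptor UMI. Their share of D2 and D1 nuclei was 97.7% in Sham L and 97.2% in sMCAO contra after thinning, with 98.2% and 92.2% in the ipsilateral pair, and 78.0%, 83.0%, 72.7%, 76.2%, 80.6% and 63.75% with 1 receptor UMI. Uncalled values of MCAO ipsi against Sham changed sign for Bcl11b (-0.061 to 0.20 over left-out libraries, -0.17 in thinned nuclei), Foxp1 (-0.12 to 0.21 over left-out libraries) and Gpr52 (-0.17 to 0.28 over left-out libraries, -0.11 without doublets, -0.10 with sums thinned, -0.75 in thinned nuclei). Of 835 values of single genes under alternatives, 729 kept direction and side of the threshold and 96 lost the call. Another 8 changed sign, and 2, both of Pde10a in MCAO ipsi against Sham, gained a call.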

Other observations

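Within the lesioned hemisphere the sMCAO library differed from the mMCAO library in D2 nuclei for several genes. No test between these 2 libraries was run, and the ratios carry exact 95% intervals for counting error only. The D2 nuclei of sMCAO ipsi had a median of 6111 UMIs against 3237.5 in mMCAO ipsi, and a difference in which nuclei were recovered and selected cannot be told apart from a difference in their levels. Cnr1, the cannabinoid receptor gene, was at 34.9 CPM in sMCAO ipsi and 119 CPM in mMCAO ipsi (ratio 0.293, interval 0.203 to 0.414), with 111 to 130 CPM in the other 4 libraries. Tll1, one of the genes raised in D2 over D1 nuclei, was at 44 against 161 CPM (ratio 0.274, 0.199 to 0.372), and 103 to 140 CPM elsewhere. Car10 had a ratio of 0.237 (0.159 to 0.345) and Dpp10 one of 0.322 (0.298 to 0.348). Penk went the other way, 1.66 (1.39 to 2.0), whereas Npl had a ratio of 0.961 (0.771 to 1.2). On the contralateral side the same ratio was 1.08 (0.887 to 1.32) for Cnr1, 0.886 (0.727 to 1.08) for Tll1 and 0.977 (0.925 to 1.03) for Dpp10. These genes were chosen after their values were seen.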
